A study of Drosophila melanogaster and Drosophila simulans with 122 samples.

Results

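The 7 genes described here are dynein heavy chains of Drosophila melanogaster that lie outside the Y chromosome and were taken from a list of symbols. They are Dhc16F, Dhc36C, Dhc62B, Dhc98D and Dhc93AB, which belong to the axonemal class, Dhc64C, the cytoplasmic chain, and btv, the chain of ciliary transport. All 7 were found by symbol among the 17612 genes of the D. melanogaster count tables. The libraries used, 71 out of the 122 of the series, hold RNA of whole testes or of 1 cyst each from a replacement line, a D. mel KO line and a D. mel WT line. The cysts were staged as spermatogonia (SG), primary spermatocytes (pSC), round spermatids (rST) and elongating spermatids (eST).

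In the replacement line both copies of mir-983, an X-linked testis microRNA, had been exchanged for 1 copy of mir-983a of D. simulans. In the D. mel KO line both copies had been deleted, and the D. mel WT line was w1118, the background in which the editing was done. Testes came from flies of 3 to 5 days and cysts from flies of 2 to 3 days. Each testis library pooled several pairs of testes, and there were 3 libraries for each line. Replacement cysts numbered 5 at each stage. There were 4 KO cysts of the SG stage, 5 of pSC and 6 of each spermatid stage. There were 6 WT cysts of the SG stage and 5 of every later one. Each genotype was a single line, so the mir-983 allele and the rest of that line's genome cannot be told apart. How cysts were divided over flies is not given in the sources used here, and p-values measure only the spread between these libraries.

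A dynein heavy chain is the motor subunit of a dynein complex and carries the ATPase ring that walks along microtubules. Axonemal heavy chains sit in rows of inner and outer arms on the doublet microtubules and bend the sperm tail. Cytoplasmic dynein, built on Dhc64C, carries cargo, positions nuclei and works at the mitotic spindle. The dynein of ciliary transport, built on btv, returns material from the tip of a cilium in sensory neurons. Fly sperm tails are assembled in the cytoplasm and do not need this transport. Several other axonemal heavy chains of the fly, among them kl-2, kl-3 and kl-5, are Y-linked male fertility genes.

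All 7 genes are exceptionally long. Their exons cover 12442 bases in Dhc16F, 12325 in Dhc36C, 12090 in Dhc62B, 15919 in Dhc98D, 14010 in Dhc93AB, 14597 in Dhc64C and 12821 in btv, and each is longer than at least 99.11% of the genes. In release 6 coordinates, Dhc16F (FBgn0283476) lies on the plus strand at X:18064483-18078472. Dhc36C (FBgn0013810) lies on the plus strand at 2L:17501401-17525515, and btv (FBgn0023096) on the minus strand of the same arm at 2L:17962625-17982472. Dhc62B (FBgn0013811) lies on the minus strand at 3L:1759172-1771758 and Dhc64C (FBgn0261797) on the minus strand at 3L:4807368-4825687. Dhc93AB (FBgn0013812) lies on the minus strand at 3R:21024580-21042499 and Dhc98D (FBgn0013813) on the plus strand at 3R:28486953-28519398. Exons of other genes overlap 37 bases of Dhc62B and 39 bases of Dhc64C, under 1% of each.

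The libraries held 15478484 to 21368301 counted reads in testes and 14870386 to 24086166 in cysts. Neither mir-983 gene is in the count tables, and their FPKM was above 0 in at most 3 of 71 libraries, so the deletion cannot be checked in these data. All 62 cysts were closest to the testes of their own line over 393 genes that distinguish the lines. The 2 SG cysts least like their group were replacement replicate 1 and KO replicate 4. The summed FPKM of 5 SG markers was 62.6 to 575 in the SG cysts and at most 37.0 in the later cysts. SG cysts also held later transcripts: the summed FPKM of 7 spermatid markers was 37.4 to 966 in replacement SG cysts, 142 to 1382 in KO SG cysts and 846 to 1527 in WT SG cysts. The lowest sums of the spermatid markers in replacement and KO SG cysts belonged to the 2 SG cysts just named. The summed FPKM of 6 pSC markers was 38.8 to 396 in replacement SG cysts, 233 to 327 in KO and 261.5 to 451 in WT. In pSC cysts it was 226 to 920 in replacement, 338 to 637 in KO and 420 to 679 in WT. The part of pSC transcripts held by SG cysts in the step to pSC was not tested. In KO testis replicate 2 the summed FPKM of the accessory gland markers was 263.9, against at most 20.0 in the other 8 testis libraries. The same sum was 27.1 to 59.0 in replacement SG cysts, 15.5 to 115.6 in KO SG cysts and 160 to 894 in WT SG cysts, and its part in the SG levels was not tested.

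In whole testes the 4 axonemal genes Dhc36C, Dhc98D, Dhc16F and Dhc62B were the most abundant heavy chains of the 7 in all 3 lines, and Dhc93AB was the least abundant. Levels are FPKM, the authors' fragments per kilobase of transcript scaled to the size of the library, which allows genes of different length to be compared. Dhc36C, whose closest vertebrate relatives are inner arm chains, led with 13.3, 18.6 and 18.8 FPKM in the replacement testes, 20.4, 17.0 and 19.8 in the KO testes, and 12.4, 17.9 and 17.4 in the WT testes. Dhc98D followed with 11.2, 15.4 and 16.0 FPKM in the replacement testes, 14.7, 10.9 and 13.1 in the KO testes, and 9.54, 13.5 and 11.4 in the WT testes. The ranges of these 2 genes overlapped in replacement and in WT testes but not in KO testes.

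Dhc64C stood below all 4, with 2.94, 3.90 and 3.63 FPKM in the replacement testes, 4.36, 2.89 and 4.09 in the KO testes, and 2.76, 3.72 and 3.55 in the WT testes. The level of btv was 0.731, 0.725 and 0.890 FPKM in the replacement testes, 0.816, 0.747 and 0.794 in the KO testes, and 0.919, 0.806 and 0.725 in the WT testes. Dhc93AB, an outer arm chain known from the mechanosensory neurons of the fly ear, had 0.152, 0.243 and 0.180 FPKM in the replacement testes, 0.183, 0.157 and 0.195 in the KO testes, and 0.258, 0.230 and 0.157 in the WT testes. In every line these 3 genes kept the order Dhc64C, btv, Dhc93AB without any overlap between libraries. Dhc93AB rested on 40 to 82 reads in a testis library, while Dhc98D had 3369 to 6649.

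**Figure D1:**
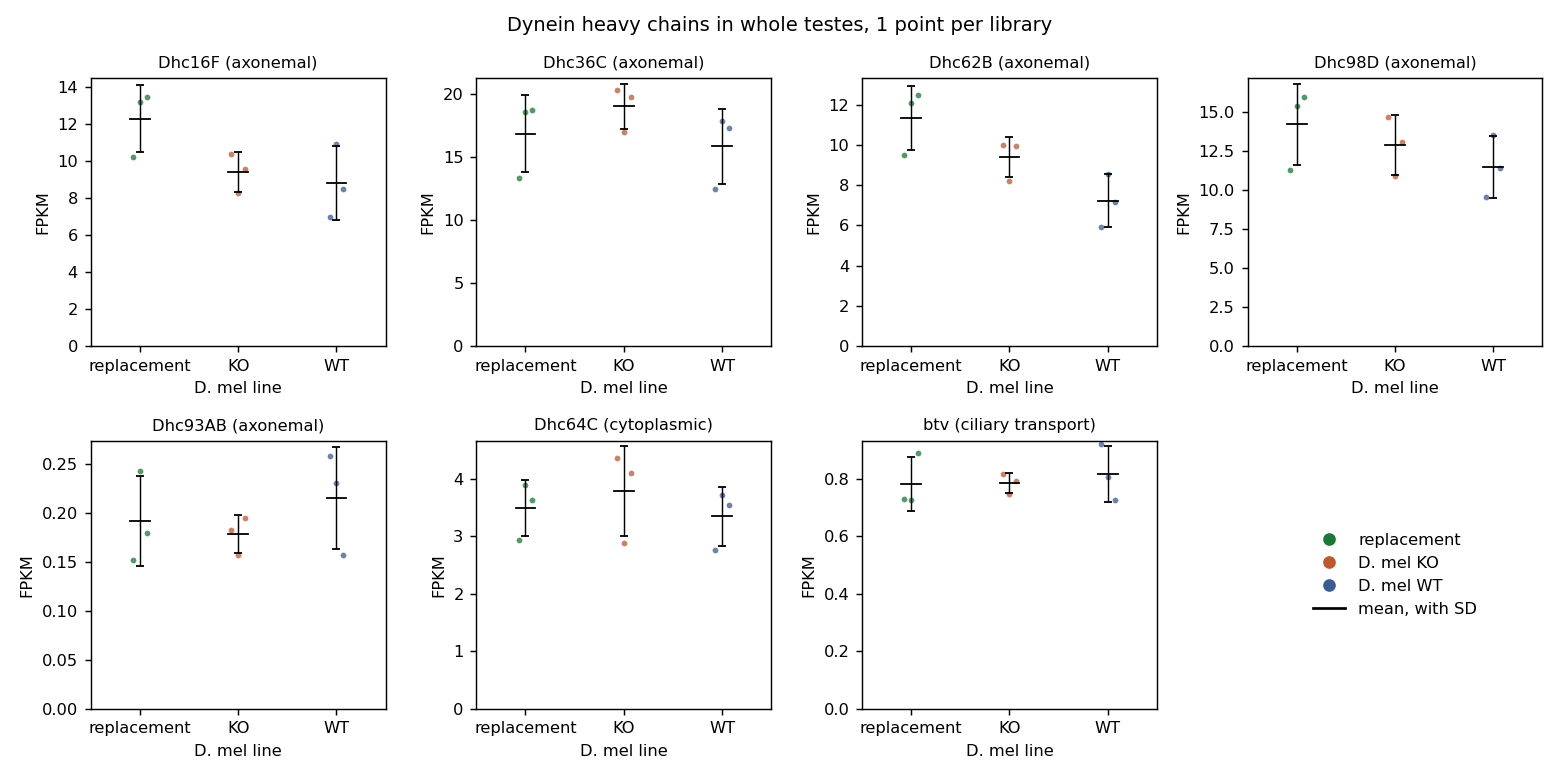
FPKM of the 7 heavy chain genes in whole testes, 1 panel per gene, with replacement, KO and WT libraries from left to right. Points are libraries (3 per line), and horizontal lines with bars are the mean and SD. For Dhc62B the replacement libraries lie between 9.50 and 12.5 FPKM and the WT libraries between 5.93 and 8.55, while btv is between 0.725 and 0.919 in all 9 libraries.

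The comparison of the lines in testes asks whether the level of a heavy chain gene differs when mir-983 is absent or is that of D. simulans. Dhc62B and Dhc16F, both related to vertebrate inner arm chains, were higher in the replacement testes than in the WT testes. Dhc62B had 9.50, 12.1 and 12.5 FPKM in the replacement testes, 10.0, 8.22 and 9.93 in the KO testes, and 5.93, 8.55 and 7.15 in the WT testes. Each replacement library was above each WT library, and the KO libraries lay between and across both. In edgeR's quasi-likelihood test on the counts, with Benjamini-Hochberg adjustment over all genes tested, Dhc62B was 1.69-fold higher in replacement than in WT testes (log2 difference 0.76 ± 0.12 (SE), n = 3 each, adjusted p = 0.00036). Lower transcript levels per cell and fewer cells of the stages that make a transcript cannot be told apart in whole testes.

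Dhc16F had 10.2, 13.2 and 13.4 FPKM in the replacement testes, 10.3, 8.24 and 9.54 in the KO testes, and 6.96, 10.9 and 8.48 in the WT testes. The lowest replacement library lay within the WT range. By counts Dhc16F was 1.50-fold higher in replacement than in WT testes (log2 difference 0.58 ± 0.14 (SE), n = 3 each, adjusted p = 0.0058) and 1.38-fold higher in replacement than in KO testes (0.46 ± 0.14, adjusted p = 0.028). Dhc62B was 1.34-fold higher in KO than in WT testes (log2 difference 0.42 ± 0.12, adjusted p = 0.032), and its difference between replacement and KO was 0.34 ± 0.12 (adjusted p = 0.060). Dhc98D was 1.33-fold higher in replacement than in WT testes (0.41 ± 0.14, adjusted p = 0.045).

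Thus 3 of 7 genes passed the test between replacement and WT testes, where 29.2% of the 12845 genes tested passed in either direction. Between replacement and KO testes 1 of 7 passed, against 21.8% of all genes, and between KO and WT testes 1 of 7, against 17.1%. All 5 were higher values in the line named first, which held for 14%, 10% and 8.71% of all genes in the 3 comparisons. None of the 5 reached 2-fold, as 7.68%, 6.18% and 5.17% of all genes did. Each pair of these comparisons has a line in common, so their calls are not independent. The median log2 difference of the 7 genes was 0.19 in each of the 3 comparisons, against -0.01 for all genes between replacement and WT, -0.02 between replacement and KO, and 0.01 between KO and WT.

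The 4 genes that passed in no comparison were Dhc36C, Dhc64C, btv and Dhc93AB. Dhc36C was 0.19 ± 0.13 (SE) higher on the log2 scale in replacement than in WT testes (adjusted p = 0.32) and 0.29 ± 0.13 higher in KO than in WT testes (adjusted p = 0.16). Dhc64C differed by 0.14 ± 0.14 between replacement and WT (adjusted p = 0.50) and by 0.19 ± 0.14 between KO and WT (adjusted p = 0.42). The difference for btv was -0.09 ± 0.09 between replacement and WT (adjusted p = 0.50), the most precise of the 7, and that for Dhc93AB was -0.06 ± 0.23 (adjusted p = 0.87). Between replacement and KO testes the differences of these 4 genes ran between -0.10 and 0.19, with adjusted p of at least 0.63.

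The differences of Dhc62B and Dhc16F between replacement and WT testes passed in each of 9 fits that left out 1 library. The other 3 did not, and they also missed the threshold in DESeq2 (adjusted p = 0.086 for Dhc62B between KO and WT, 0.072 for Dhc16F between replacement and KO and 0.11 for Dhc98D). Dhc62B between KO and WT lost its call without WT replicate 1 (adjusted p = 0.14) or 3 (0.098), or KO replicate 1 (0.11) or 3 (0.096). Without KO replicate 2, the library with the accessory gland transcripts, it was 0.51 (adjusted p = 0.0064). Dhc16F between replacement and KO lost it without KO replicate 2 (adjusted p = 0.060) or 3 (0.061), or replacement replicate 2 (0.10) or 3 (0.11). Dhc98D lost it without WT replicate 1 (adjusted p = 0.18) or 3 (0.11), KO replicate 3 (0.053), or replacement replicate 2 (0.15) or 3 (0.18).

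Within each line a single testis library was the lowest for Dhc16F, Dhc36C, Dhc62B, Dhc98D and Dhc64C alike, namely replacement replicate 1, KO replicate 2 and WT replicate 1. The share of all counts that fell on the 153 other genes of at least 12000 exon bases, a group formed after the values were seen, moved with them. It was 1.66%, 1.88% and 1.89% in replacement replicates 1 to 3, 1.86%, 1.65% and 1.89% in the KO replicates, and 1.66%, 1.85% and 1.77% in the WT replicates. Among 150 of these long genes tested between replacement and WT testes, 26 were higher and 18 lower, with a median log2 difference of 0.09. Among all genes tested 14% were higher and 29.2% differed in either direction. The part of this share in the differences between lines was not tested.

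Other dynein genes were compared between the lines as well, and Dnah3 was added to their list after the files had been seen. Of 6 other axonemal heavy chains tested, 4 were higher in replacement than in WT testes: kl-5 by 0.60 ± 0.13 (SE) on the log2 scale (adjusted p = 0.0026), Dnah3 by 0.55 ± 0.14 (adjusted p = 0.011), kl-2 by 0.49 ± 0.09 (adjusted p = 0.00095) and kl-3 by 0.42 ± 0.12 (adjusted p = 0.015). CG3339 was lower (-0.43 ± 0.14, adjusted p = 0.034), and Dhc1 did not pass, where 14% of all genes tested were higher and 29.2% differed in either direction. Between KO and WT testes kl-5 (0.50 ± 0.13, adjusted p = 0.013) and kl-2 (0.39 ± 0.09, adjusted p = 0.0090) were higher, and between replacement and KO testes none of the 6 passed. Among all genes 17.1% passed between KO and WT testes and 21.8% between replacement and KO testes.

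Intermediate and light chains of the axonemal arms did not share one direction: 2 of 11 were higher and none lower in replacement than in WT testes, and 2 were higher and 3 lower in KO than in WT testes. Among all genes tested 29.2% passed in either direction between replacement and WT testes, with 7.68% over 2-fold. Between KO and WT testes 17.1% passed. Among docking and assembly factors 1 of 14 was higher and 1 lower in replacement than in WT testes. The higher one was Ccdc114, a docking complex subunit, which was 1.54 ± 0.19 higher on the log2 scale (adjusted p = 3.4e-05) and 1.86 ± 0.19 higher in KO than in WT testes (adjusted p = 1.2e-05). Of 19 subunits and partners of cytoplasmic dynein and dynactin, 1 was higher in replacement than in WT testes, sw by 0.42 ± 0.12 (adjusted p = 0.016), and none was lower. Of 15 genes of intraflagellar transport 2 were higher and 4 lower in replacement than in WT testes, and 4 of these calls were over 2-fold. Those over 2-fold included IFT52 at 1.65 ± 0.15 (adjusted p = 1.6e-06) and CG3769 at -3.23 ± 0.59 (adjusted p = 0.00097). Sdic2, an axonemal intermediate chain gene with near-identical neighbours, gave -3.17 ± 0.27 between KO and WT testes (adjusted p = 1.9e-06). The part of the near-identical copies in this value was not tested.

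Across single cysts of the WT line, Dhc36C, Dhc16F, Dhc62B, btv and Dhc93AB, 5 of the 7 genes, were higher at pSC than at SG, where 8.28% of all genes were higher and 25.9% differed in either direction. One of the 5, Dhc93AB, had 7 reads in all at SG and 80 at pSC and passed the filter on low counts only through the later stages, and with a filter of 50 normalized counts the count was 4 of 6. The comparison of successive stages asks when in sperm development each chain's transcript rises and falls. Dhc36C had a lowest, median and highest value of 0.384, 0.697 and 0.833 FPKM in the 6 WT SG cysts. It had 1.43, 1.85, 2.50, 2.52 and 1.50 FPKM at pSC, 2.103, 3.09, 2.65, 2.71 and 2.98 at rST, and 1.26, 2.97, 2.65, 1.19 and 1.22 at eST. Every WT pSC cyst was above every WT SG cyst. At eST 3 of the 5 WT cysts were below every rST cyst and the other 2 lay within the rST range, with a median of 1.26 FPKM at eST and 2.71 at rST, while the count difference was 0.03 ± 0.31 (adjusted p = 0.95). By counts Dhc36C was 3.35-fold higher at pSC than at SG (log2 difference 1.74 ± 0.30 (SE), adjusted p = 0.00018 in edgeR's quasi-likelihood test) and 1.87-fold higher at rST than at pSC (0.91 ± 0.31, adjusted p = 0.040).

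Dhc16F had a lowest, median and highest value of 0.173, 0.403 and 0.631 FPKM in the WT SG cysts and 0.838, 1.02, 1.23, 0.955 and 0.637 at pSC. It then had 0.699, 0.970, 0.845, 0.680 and 0.950 FPKM at rST and 0.748, 1.57, 0.875, 0.356 and 0.728 at eST. The SG and pSC cysts did not overlap, while pSC, rST and eST did. By counts it was 2.59-fold higher at pSC than at SG (1.37 ± 0.36, adjusted p = 0.0078). Dhc62B, with 0.266 to 0.607 FPKM at SG and 0.431 to 1.09 at pSC, was 2.30-fold higher at pSC (1.20 ± 0.34, adjusted p = 0.013).

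Dhc98D differed from these 3. It was the most abundant of the 7 genes at SG in all 3 lines, and in WT SG cysts it had a lowest, median and highest value of 1.04, 1.46 and 1.71 FPKM, above every value of Dhc36C. In WT cysts it had 2.19, 3.13, 2.88, 2.28 and 1.90 FPKM at pSC, 1.52, 1.58, 1.49, 1.64 and 1.57 at rST, and 0.152, 0.267, 1.43, 0.540 and 0.110 at eST. The FPKM ranges of each stage were apart from those of the stage before it. The main count test, over all stages of the line, did not pass for any of these steps. The log2 difference was 0.96 ± 0.40 (SE) between pSC and SG (adjusted p = 0.078), -0.20 ± 0.42 between rST and pSC (adjusted p = 0.77) and -1.06 ± 0.43 between eST and rST (adjusted p = 0.067). Of 9 alternative fits, the first of these steps passed in 4 and the last in 4. Those for the first included DESeq2 and the count fit of only the 2 groups compared. Those for the last included the count fits with a replicate block and with all 62 cysts. In limma on log2(FPKM + 1) the first (0.52, adjusted p = 0.025) and the last (-0.84, adjusted p = 0.0014) passed, and without eST replicate 3, the cyst with 1.43 FPKM, the last was -1.74 by counts (adjusted p = 0.00097).

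At the last step the count test passed for Dhc98D in the other 2 lines. Replacement eST cysts had 0.336, 0.345, 0.672, 0.0389 and 0.724 FPKM, against 1.50, 1.56, 1.50, 1.54 and 1.34 in replacement rST cysts, and the counts were 3.07-fold lower (log2 difference -1.62 ± 0.44, adjusted p = 0.019). KO eST cysts had a lowest, median and highest value of 0.118, 0.445 and 1.18 FPKM, against 1.02, 1.32 and 1.62 in KO rST cysts, and the counts were 2.72-fold lower (-1.44 ± 0.33, adjusted p = 0.0039). Both calls held when any 1 library was left out.

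**Figure D2:**
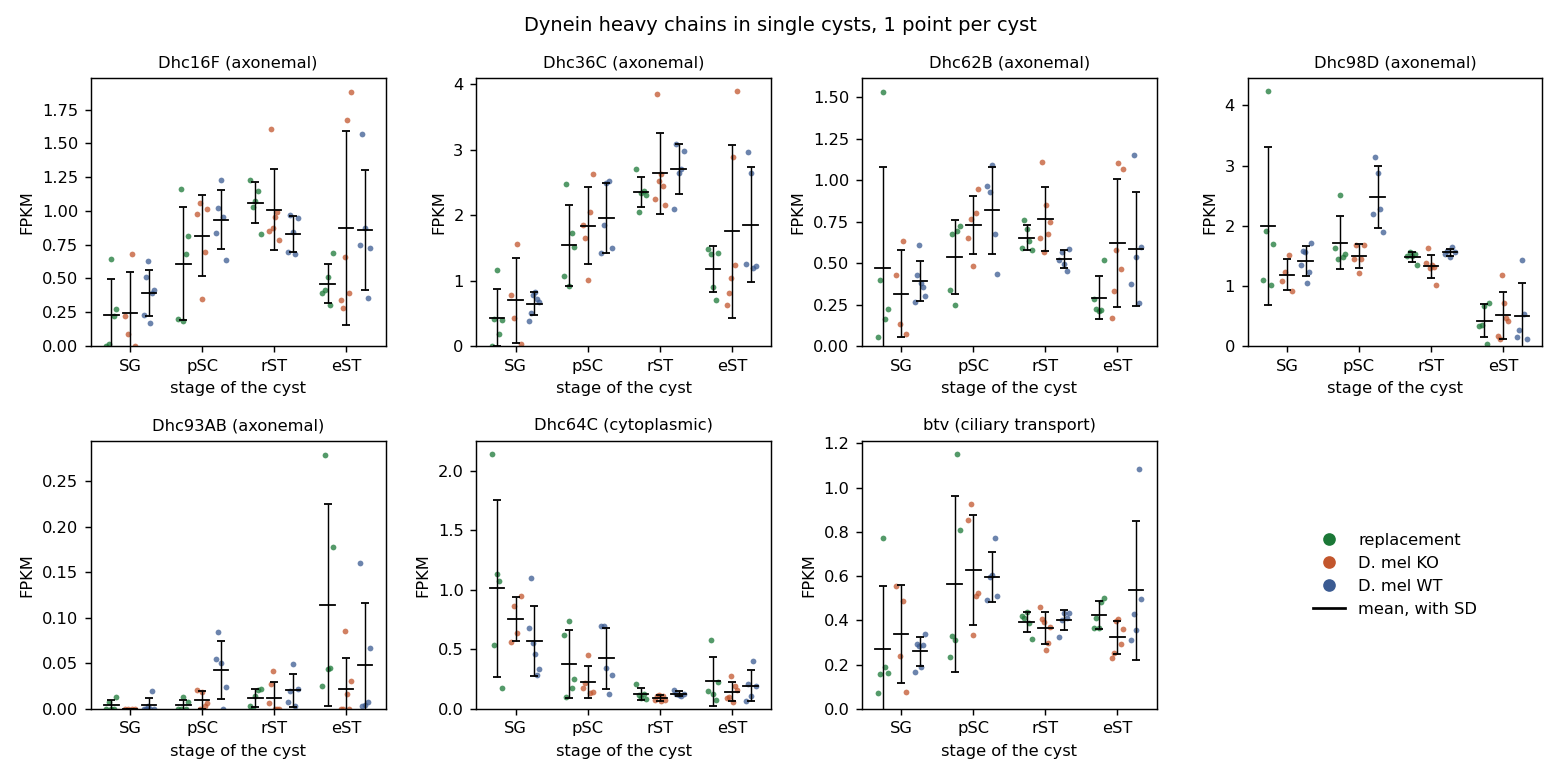
FPKM of the 7 heavy chain genes in single cysts, 1 panel per gene, against stage, with replacement, KO and WT cysts from left to right within a stage. Points are cysts, and horizontal lines with bars are the mean and SD. In WT cysts Dhc36C is at most 0.833 FPKM at SG and at least 1.43 at pSC, and Dhc64C is highest at SG, where its mean is 1.01 FPKM in replacement, 0.753 in KO and 0.569 in WT cysts.

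Dhc93AB was close to the limit of detection in cysts. Its reads summed to 5 over the replacement SG cysts, 5 over the pSC cysts, 22 over the rST cysts and 213 over the eST cysts. In KO cysts the sums were 1, 16, 24 and 50 in the same order of stages, and in WT cysts 7, 80, 36 and 85, with 52 of the last from 1 cyst. No read was found in 21 of the 62 cysts, which at a floor of 3 counts per library allows 0.00924 to 0.0144 RPKM, and such floors cover counting error only. The count test passed for pSC over SG in WT cysts (log2 difference 3.40 ± 1.17, adjusted p = 0.036) and for eST over rST in replacement cysts (3.50 ± 1.05, adjusted p = 0.029). In replacement eST cysts its FPKM was 0.0247, 0.279, 0.0432, 0.0448 and 0.178, each above the highest replacement rST cyst at 0.0218. Both calls rest on a gene that passed the filter on low counts only through the stages where it is higher.

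Dhc64C was lower at pSC than at SG in KO cysts and did not pass at that step in the other 2 lines. In KO cysts it had 0.559, 0.866, 0.638 and 0.948 FPKM at SG and 0.173, 0.220, 0.455, 0.136 and 0.144 at pSC. Every KO pSC cyst was below every KO SG cyst. By counts it was 2.59-fold lower at pSC than at SG in that line (log2 difference -1.37 ± 0.35 (SE), adjusted p = 0.0042) and lower again at rST than at pSC (-1.003 ± 0.325, adjusted p = 0.040). The later of these calls passed in only 2 of 9 alternative fits, and it was lost in DESeq2 (adjusted p = 0.056), in limma on log2(FPKM + 1) (0.16) and when all 62 cysts were fitted together (0.18). In KO rST cysts its lowest, median and highest values were 0.0683, 0.0899 and 0.113 FPKM.

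In replacement cysts Dhc64C had 2.14, 0.539, 1.13, 1.08 and 0.175 FPKM at SG and 0.623, 0.103, 0.736, 0.172 and 0.247 at pSC. These values overlapped, and the log2 difference of -1.43 ± 0.63 did not pass (adjusted p = 0.070), though it did in 3 of 9 alternative fits. In WT cysts it had a lowest, median and highest value of 0.286, 0.506 and 1.10 FPKM at SG and 0.692, 0.694, 0.343, 0.121 and 0.281 at pSC, with a log2 difference of -0.35 ± 0.45 (adjusted p = 0.55). Of the 2 WT pSC cysts with the highest values, replicate 1 had a summed FPKM of muscle markers of 369.1, and replicate 2 had the lowest sum of the 5, 9.83. The summed FPKM of the 5 SG markers was 37.0, 2.3, 32.7, 7.1 and 7.7 in replacement pSC replicates 1 to 5. In the same order of replicates it was 7.5, 7.7, 13.7, 4.6 and 5.4 in KO pSC cysts. The WT pSC cysts had 14.9, 13.4, 8.5, 7.4 and 16.1. The part of muscle and of SG transcripts in the Dhc64C levels at pSC was not tested. Between rST and pSC the WT difference was -1.29 ± 0.48 (adjusted p = 0.052), and it passed in 4 of 9 alternative fits. Dhc64C was higher at eST than at rST in WT cysts by counts (1.38 ± 0.48, adjusted p = 0.035), but its FPKM ranges were 0.0613 to 0.404 at eST and 0.106 to 0.160 at rST, and without WT eST replicate 4 the difference was 0.82 (adjusted p = 0.17). The call was also lost without any 1 of the WT rST cysts or eST replicate 2 (adjusted p between 0.052 and 0.077). On log2(FPKM + 0.1) it was 0.27 (adjusted p = 0.65 in limma), and with only rST and eST cysts in the fit it was 1.02 by counts (adjusted p = 0.12).

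The ciliary transport chain btv was higher at pSC than at SG in all 3 lines, as Dhc36C was, but the replacement and KO calls of both genes were lost when only SG and pSC cysts were fitted. In replacement cysts it had 0.0703, 0.159, 0.772, 0.190 and 0.162 FPKM at SG and 0.232, 0.327, 0.310, 1.15 and 0.806 at pSC, and by counts it was 2.71-fold higher (log2 difference 1.44 ± 0.54, adjusted p = 0.038). In KO cysts it had 0.554, 0.240, 0.489 and 0.0771 FPKM at SG and 0.852, 0.924, 0.335, 0.509 and 0.524 at pSC (1.18 ± 0.47, adjusted p = 0.044). In WT cysts its lowest, median and highest values were 0.165, 0.286 and 0.337 FPKM at SG, all below the pSC values of 0.494, 0.594, 0.605, 0.774 and 0.510 (1.23 ± 0.34, 2.35-fold, adjusted p = 0.011). Only the WT groups were free of overlap. At eST in WT cysts btv was higher than at rST by counts (1.13 ± 0.36, adjusted p = 0.024), and without WT eST replicate 4, the cyst with 1.08 FPKM, the difference was 0.60 (adjusted p = 0.14). Without WT rST replicate 1 it was 0.92 (adjusted p = 0.085), with only rST and eST cysts in the fit 0.76 (0.18), and on log2(FPKM + 1) 0.11 (0.48 in limma).

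The other 2 lines had fewer calls at the step between SG and pSC. In replacement cysts 2 of 7 genes passed, Dhc36C (4.77-fold, 2.25 ± 0.68, adjusted p = 0.015) and btv, against 41.8% of all genes tested. In KO cysts 4 of 7 passed, against 48.4%: Dhc36C (1.69 ± 0.68, adjusted p = 0.046), Dhc62B (1.57 ± 0.58, adjusted p = 0.030) and btv were higher and Dhc64C lower. The WT cysts had 5. Dhc16F did not pass in KO cysts (1.97 ± 0.83, adjusted p = 0.054) or in replacement cysts (1.81 ± 0.86, adjusted p = 0.092). Of 9 alternative fits it passed in 5 in KO cysts and in 3 in replacement cysts.

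The SG cysts held unequal amounts of spermatid transcripts. Dhc16F had 0, 0.0122, 0.646, 0.225 and 0.275 FPKM in the 5 replacement SG cysts, whose spermatid marker sums were 37.4, 492, 966, 465.9 and 873 FPKM. In the 4 KO SG cysts it had 0.220, 0.0927, 0.681 and 0 FPKM, beside marker sums of 1018, 798, 1382 and 142. In both lines the cyst with the highest marker sum had the highest Dhc16F, and the cyst with the lowest sum had no Dhc16F read, a level of at most 0.0104 RPKM in the replacement cyst and 0.0145 RPKM in the KO cyst at a floor of 3 counts. The part of these transcripts in the SG levels was not tested. Without the 2 SG cysts that stood apart, the calls of Dhc36C (adjusted p = 0.088), Dhc62B (0.092) and btv (0.11) in KO cysts and of btv (0.075) in replacement cysts no longer passed, while those of Dhc64C in KO and Dhc36C in replacement cysts did.

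The calls for this step were not equally stable when 1 cyst was left out. Those of Dhc36C, Dhc16F and btv in WT cysts and of Dhc64C in KO cysts passed in all 21 such fits of their line. Dhc62B in WT cysts was lost only without pSC replicate 3 (adjusted p = 0.053), and Dhc36C in replacement cysts only without pSC replicate 2 (0.052). Dhc93AB in WT cysts was lost without SG replicates 1, 2, 4, 5 or 7 or pSC replicates 2 or 3 (adjusted p between 0.064 and 0.075), and btv in replacement cysts without SG replicates 1, 2, 5 or 6 or pSC replicates 2, 4 or 5 (between 0.053 and 0.14).

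In KO cysts Dhc62B was lost without SG replicates 2 or 4 or pSC replicates 4 or 5 (adjusted p between 0.056 and 0.093). Dhc36C was lost without SG replicates 1, 2 or 4, pSC replicates 1, 2, 4 or 5, or rST replicates 1, 3, 4, 5 or 6 (between 0.051 and 0.12). For btv the call was lost without SG replicates 2 or 4, pSC replicates 1, 2, 4 or 5, rST replicates 1, 2, 3, 5 or 6, or eST replicates 5 or 6 (between 0.050 and 0.12).

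These calls also changed with the stages that were fitted together. With only SG and pSC cysts fitted, adjusted p was 0.085 for Dhc36C and 0.13 for btv in replacement cysts, and 0.11 for Dhc36C, 0.073 for Dhc62B and 0.15 for btv in KO cysts, so that 0 of 6 genes passed in replacement cysts and only Dhc64C in KO cysts. In limma on log2(FPKM + 1) btv was lost in replacement cysts (adjusted p = 0.10) and Dhc93AB in WT cysts (0.38). With all 62 cysts in 1 fit, Dhc62B (0.098) and Dhc16F (0.18) were lost in WT cysts.

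Over the later steps few genes passed. Between rST and pSC the counts passed for 0 of 7 genes in replacement cysts (Dhc93AB at an unadjusted p under 0.05, and passing in DESeq2), 1 in KO cysts and 1 in WT cysts, against 19.7%, 14.5% and 23.3% of all genes. Between eST and rST they passed for 2, 1 and 2 of 7 genes, against 15.5%, 22.4% and 27% of all genes. The 2 in replacement cysts include Dhc93AB, which passed the filter on low counts only through stages where it is higher. In replacement cysts all 5 axonemal genes had FPKM ranges apart between eST and rST, lower at eST for Dhc16F, Dhc36C, Dhc62B and Dhc98D and higher for Dhc93AB. In the count test over all 4 stages Dhc98D and Dhc93AB passed, and Dhc36C, for example, had a log2 difference of -0.65 ± 0.65 (adjusted p = 0.51). With only the rST and eST cysts fitted all 5 passed, with Dhc16F at -1.25 (adjusted p = 0.00092), Dhc62B at -1.27 (0.0040) and Dhc36C at -1.01 (0.0046), and 3925 genes passed in all, against 2018. The median of all genes was 0.46 over all 4 stages and 0.11 in the fit of both groups alone. Dhc93AB was lost on log2(FPKM + 1) (adjusted p = 0.17 in limma) and, by counts over all 4 stages, without any of rST replicates 1 to 4 or without eST replicate 2 (adjusted p between 0.055 and 0.11). Dhc36C between rST and pSC in WT cysts was lost in limma on log2(FPKM + 1) (0.17), with all 62 cysts in 1 fit (0.29) and without pSC replicates 1, 2 or 5 or rST replicates 2, 3, 4 or 5 (between 0.070 and 0.11). Dhc64C between rST and pSC in KO cysts was lost without pSC replicates 1, 2 or 3 or rST replicates 1, 3, 4 or 6 (between 0.051 and 0.19). The summed FPKM of the spermatid markers in eST cysts was 801 to 2861 in replacement, 1145 to 3496 in KO and 2507 to 3735 in WT. In rST cysts it was 2437 to 3016, 2807 to 2988 and 1961 to 2863. That of 6 muscle markers was 14.7 to 130, 9.85 to 55.7 and 5.4 to 38.5 at eST. At rST it was 8.33 to 31.8, 5.80 to 18.0 and 6.56 to 34.3. The part of these transcripts in the eST levels was not tested.

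**Figure D3:**
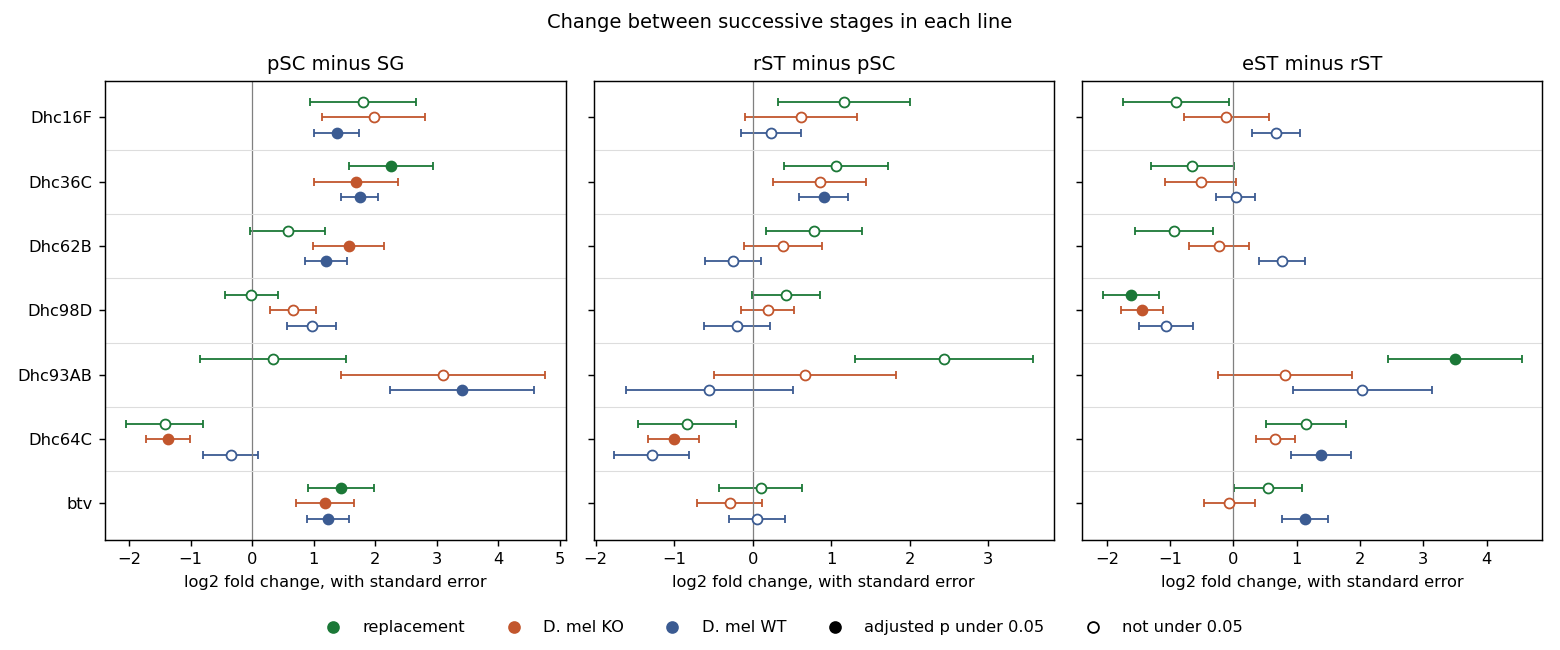
Log2 fold change of the 7 heavy chain genes between successive stages from edgeR, with bars of 1 SE, for replacement, KO and WT cysts from top to bottom within a gene. Filled points passed at an adjusted p under 0.05. From SG to pSC Dhc36C and btv are filled in all 3 lines, with Dhc36C at 2.25, 1.69 and 1.74, and Dhc64C is filled in KO cysts alone, at -1.37.

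The change between stages was not shown to differ between the lines. A test of the difference itself, over 63 combinations of a gene, a step and a pair of lines, passed for none in edgeR and for 1 at an unadjusted p under 0.05, with a lowest adjusted p of 0.28. That lowest value was the difference of Dhc62B between replacement and WT from rST to eST. Among all genes 0.505% passed between KO and WT for the step to pSC, 0% for the step to rST and 3.31% for the step to eST. Between replacement and KO the shares were 0.19%, 0% and 0.00732%, and between replacement and WT 1.13%, 0% and 1.77%.

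As a share of the summed FPKM of the 7 genes, the axonemal class was larger at rST than at SG in all 3 lines. In replacement cysts, taking the 4 stages in developmental order, it was 67.7% ± 22.3 (SD, n = 5), 82.0% ± 6.4, 91.5% ± 0.8 and 78.4% ± 6.3. In KO cysts it was 65.5% ± 12.3 (n = 4), 84.6% ± 4.6, 92.5% ± 1.6 and 86.1% ± 5.7. In WT cysts it was 77.6% ± 5.8 (n = 6), 85.7% ± 2.7, 91.4% ± 0.55 and 82.3% ± 12.7. The rST cysts varied least, and no rST cyst of any line was below 90.5%, while no SG cyst was above 88.6%.

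Shares of the same sum are not independent, since a rise of one lowers the rest together. The share of Dhc64C ran the other way. Its mean was 26.95%, 7.84%, 2.04% and 6.85% at the 4 stages in replacement cysts, 25.5%, 4.53%, 1.47% and 4.39% in KO cysts, and 15.3%, 5.93%, 2.09% and 4.60% in WT cysts. Without replacement SG replicate 1 the first of these means was 17.8%, and without KO pSC replicate 3 the mean of that group was 2.72%. The axonemal sum was on average 48.2 times the Dhc64C level at rST in replacement cysts, 65.4 times in KO cysts and 45.5 times in WT cysts, and 5.76, 3.66 and 6.09 times at SG. Replacement SG replicate 1 was the lowest cyst, where the axonemal sum was 0.537 times the Dhc64C level, and in replicate 6 it was 14.99 times that level, without which the mean was 3.45. In testes the ratio was 15.7 ± 0.9 (SD) in replacement, 13.7 ± 1.5 in KO and 12.99 ± 0.63 in WT, n = 3 each. The share of btv was 5.39% to 14.8% at the stages of the 3 lines and 1.34%, 1.43% and 1.77% in replacement, KO and WT testes.

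**Figure D4:**
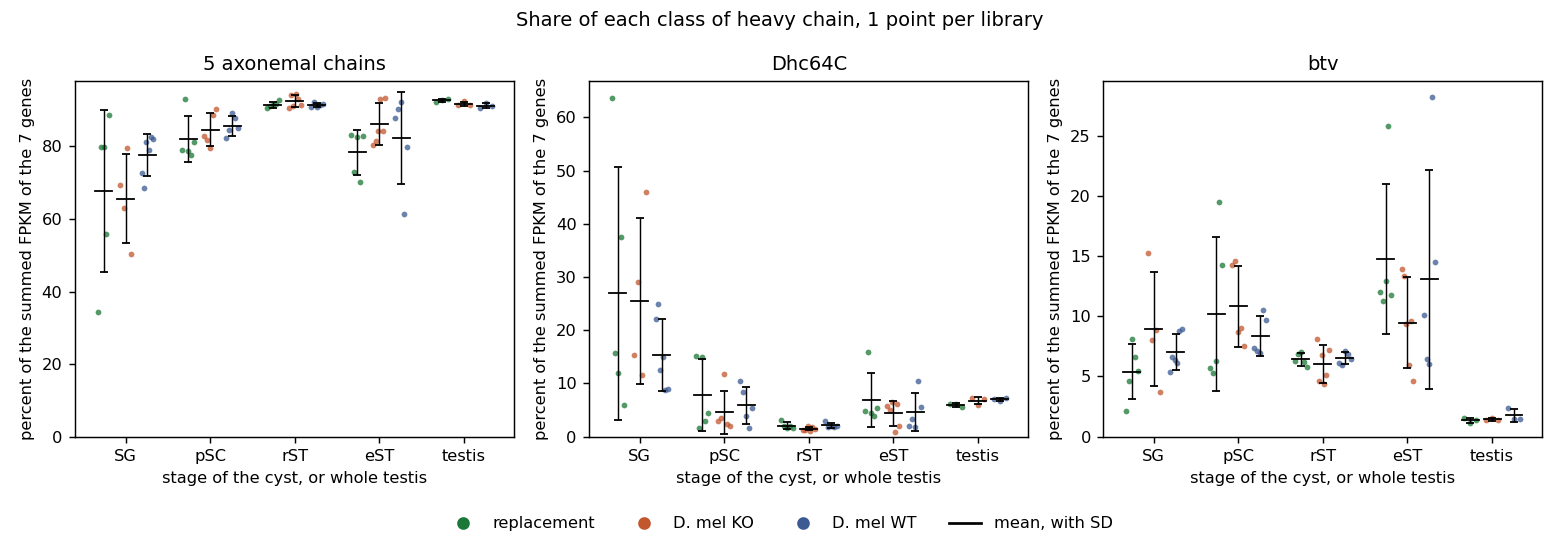
Percent of the summed FPKM of the 7 genes taken by the 5 axonemal chains, by Dhc64C and by btv, for cysts of each stage and for whole testes. Points are libraries, with replacement, KO and WT from left to right and the mean and SD in black. The axonemal share is at least 90.5% in every rST cyst, and the Dhc64C share reaches 63.7% in the replacement SG cyst with the lowest axonemal share.

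The order of the genes was the same at rST in all 3 lines: Dhc36C, Dhc98D, Dhc16F, Dhc62B, btv, Dhc64C and Dhc93AB. In replacement and in WT rST cysts no neighbours in this order overlapped. In KO rST cysts Dhc98D and Dhc16F overlapped, as did Dhc16F and Dhc62B. At SG and at eST most neighbours overlapped, and Dhc36C held the first place at eST in all lines, with a mean of 1.18 ± 0.35 FPKM in replacement (SD, n = 5), 1.75 ± 1.33 in KO (n = 6) and 1.86 ± 0.88 in WT cysts (n = 5).

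Between lines within a stage, 3 of 81 tests of the 7 genes passed, all at rST and none over 2-fold. Dhc62B had 0.590, 0.757, 0.703, 0.635 and 0.581 FPKM in replacement rST cysts, a lowest, median and highest value of 0.567, 0.711 and 1.11 in KO rST cysts, and 0.517, 0.567, 0.492, 0.451 and 0.586 in WT rST cysts. Medians were higher in replacement and in KO than in WT, and the ranges overlapped. By counts Dhc62B was 1.70-fold higher in KO than in WT rST cysts (log2 difference 0.77 ± 0.20 (SE), adjusted p = 0.023) and 1.56-fold higher in replacement than in WT (0.64 ± 0.21, adjusted p = 0.037).

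Dhc16F had 1.23, 1.03, 1.07, 1.15 and 0.830 FPKM in replacement rST cysts, a lowest, median and highest value of 0.788, 0.914 and 1.60 in KO rST cysts, and 0.699, 0.970, 0.845, 0.680 and 0.950 in WT rST cysts. It was 1.52-fold higher in replacement than in WT by counts (0.60 ± 0.20, adjusted p = 0.041), with 0.49 ± 0.19 between KO and WT (adjusted p = 0.11). So 2 of 7 genes passed between replacement and WT at rST, where 21.4% of the 12415 genes tested passed, and 1 of 7 between KO and WT, where 9.13% passed. A call over 2-fold was reached by none of the 7, against 11.4%, 4.37% and 5.69% of all genes between replacement and WT, replacement and KO, and KO and WT. None passed between replacement and KO, where 7.28% of all genes did and Dhc64C had an unadjusted p of 0.031 (0.63 ± 0.27, adjusted p = 0.19).

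These 3 calls depended on single cysts. Without WT rST replicate 1 none of them passed, with an adjusted p of 0.058 for Dhc62B between KO and WT, 0.089 for Dhc62B and 0.099 for Dhc16F between replacement and WT. Dhc62B between KO and WT was also lost without KO rST replicate 2 (0.056) or 4 (0.059). Dhc62B between replacement and WT was lost as well without WT replicate 4 or replacement replicates 2, 3, 4 or 5 (adjusted p between 0.050 and 0.10). Dhc16F was lost without WT replicate 4, KO replicates 4 or 5, or any of the 5 replacement rST cysts (between 0.050 and 0.085). With only the 2 groups compared in the fit, Dhc62B between KO and WT (0.053) and Dhc16F (0.054) were lost. On log2(FPKM + 1) none passed in limma, with adjusted p of 0.076, 0.26 and 0.23. At rST the median of all genes was -0.15 between KO and WT and -0.18 between replacement and WT with edgeR's scaling. With DESeq2's size factors it was -0.06 in both, and the same count of 3 passed.

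At the other stages no gene of the 7 passed between lines in edgeR, and in limma on FPKM and in DESeq2 none passed either, with the exception of Dhc93AB between replacement and WT pSC cysts in DESeq2 (-3.50, adjusted p = 0.020). At pSC that gene passed the filter on low counts only through the WT cysts, where it is higher. An unadjusted p under 0.05 was reached in 2 tests at pSC and 3 at eST. At SG the 6 genes tested had no unadjusted p under 0.05, and 0.129% of all genes passed between KO and WT, 0.364% between replacement and KO and 1.92% between replacement and WT. At pSC 1.8%, 1.74% and 4.1% of all genes passed in the same order. Dhc98D had 1.44, 1.69, 1.21, 1.44 and 1.69 FPKM in KO pSC cysts, all below the 1.90 to 3.13 of the WT pSC cysts, yet by counts the log2 difference was -0.47 ± 0.27 (adjusted p = 0.37). Dhc93AB was -3.40 ± 1.00 between replacement and WT pSC cysts (adjusted p = 0.070), from 5 and 80 reads in all.

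At eST 3.24% of all genes passed between KO and WT, 1.61% between replacement and KO and 5.12% between replacement and WT. Same-numbered replacement and KO eST cysts deviated together, and with the replicate number as a block 132 genes passed between them, against 201 without it, and again none of the 7. The level of btv gave -1.02 ± 0.37 between KO and WT eST cysts (adjusted p = 0.14), and Dhc62B -1.14 ± 0.52 between replacement and WT (adjusted p = 0.22). The common biological coefficient of variation was 41.0% in the fit of rST cysts and 55.8% to 71.1% in those of the other stages, against 9.07% in testes. Leaving Dhc93AB aside, the SE of a log2 difference between lines was 0.32 to 1.26 at SG and 0.12 to 0.28 at rST, against 0.09 to 0.14 in testes.

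Among the 62 cysts the levels of 3 axonemal genes followed each other. The Pearson correlation of log2(FPKM + 1), given as a description since the cysts share stages and libraries, was 0.89 between Dhc16F and Dhc36C, 0.82 between Dhc16F and Dhc62B and 0.73 between Dhc36C and Dhc62B. After the mean of each of the 12 groups of line and stage was removed, the values were 0.85, 0.82 and 0.79. Dhc16F and Dhc36C were each other's closest gene among the 13253 genes compared. The second closest gene was CR45932 for Dhc16F (0.88) and Cep97, a centriole length factor, for Dhc36C (0.87). For Dhc62B the closest were Dhc16F and CG30460 (0.77).

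The remaining genes had other neighbours. Dhc98D correlated at 0.14 with Dhc16F and 0.15 with Dhc36C, and its closest genes were EMC1 (0.88), a subunit of the membrane protein insertase of the endoplasmic reticulum, and mei-P26 (0.88), a regulator of germ cell differentiation. Dhc64C correlated at -0.67 with Dhc36C and -0.57 with Dhc16F, and within groups at -0.31 and -0.24. Its closest genes were dom (0.90), a chromatin remodeller, and Nup153 (0.89), a nuclear pore protein. For btv they were Rdl (0.70), a GABA receptor subunit, and CG43187 (0.70). For Dhc93AB they were didum (0.63), an unconventional myosin, and Ufd4 (0.63), and within groups these were 0.35 and 0.39.

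**Figure D5:**
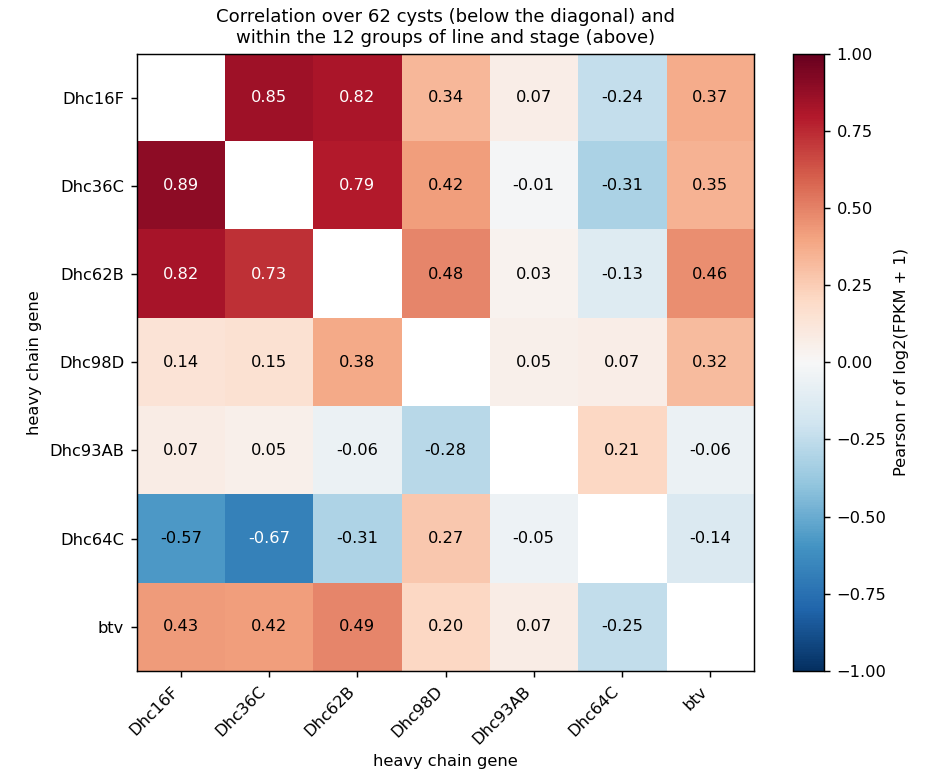
Pearson correlation of log2(FPKM + 1) between pairs of the 7 genes over 62 cysts, below the diagonal over all cysts and above it after the mean of each of the 12 groups of line and stage was removed. The block of Dhc16F, Dhc36C and Dhc62B is at 0.73 to 0.89 below and 0.79 to 0.85 above the diagonal, and the pair of Dhc36C and Dhc64C is at -0.67 below and -0.31 above.

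The other dynein genes were set beside the 7 at the step between SG and pSC. Of 6 other axonemal heavy chains, 3 were higher at pSC in replacement cysts, 3 in KO cysts and 4 in WT cysts, and none was lower. Among all genes tested 19%, 21.1% and 8.28% were higher at this step in the 3 lines and 22.8%, 27.3% and 17.6% lower. In WT cysts these were kl-3 (log2 difference 4.04), kl-5 (2.85), kl-2 (2.45) and Dnah3 (1.47), and their levels at pSC included 5.60 ± 1.22 FPKM for Dnah3, 3.07 ± 1.56 for kl-3 and 2.37 ± 0.96 for kl-5 (SD, n = 5). Dnah3, with a mean of 27.3 FPKM in replacement, 21.7 in KO and 20.1 in WT testes, was above Dhc36C in each line.

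The axonemal intermediate and light chains were higher at pSC than at SG for 6 of 12 tested in replacement cysts, 8 of 13 in KO cysts and 2 of 13 in WT cysts, with none lower. Their median log2 difference was 1.71, 1.42 and 0.59 in the 3 lines. The most abundant in WT pSC cysts were robl62A with 1018 ± 278 FPKM, robl22E with 267 ± 36.8 and Sdic4 with 232 ± 31.9. Docking and assembly factors were higher for 7 of 14 in replacement, 11 in KO and 2 in WT cysts, again with none lower, where 41.8%, 48.4% and 25.9% of all genes passed in either direction. In WT cysts these 2 were Zmynd10 (0.97, adjusted p = 0.0094), which assembles dynein arms in the cytoplasm, and dtr (1.45, adjusted p = 0.033). Dnaaf6 (278 ± 78.3 FPKM), Zmynd10 (252 ± 75.5) and wam (241 ± 56.6) were the most abundant of that list.

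Partners of Dhc64C were more often lower than higher at pSC. Of 19 cytoplasmic dynein and dynactin genes, 10 were lower and 2 higher at pSC than at SG in replacement cysts, 13 lower and 2 higher in KO cysts, and 9 lower and 1 higher in WT cysts, against the 22.8%, 27.3% and 17.6% of all genes that were lower. The median log2 difference was -1.11, -1.48 and -0.87, against 0.15, 0.15 and 0.18 for all genes. In WT cysts DCTN4-p62, a dynactin subunit, was at -3.65 (adjusted p = 7.7e-05) and Lis-1, a regulator of the motor, at -2.08 (adjusted p = 5.0e-05). The exception was Cdlc2, a light chain found in several complexes, which was higher at pSC (1.06, adjusted p = 0.0029) and stood at 655 ± 83.6 FPKM. The next most abundant were robl at 190 ± 51.6 FPKM and Dlc90F at 165 ± 41.1.

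Of 13 genes of intraflagellar transport, 1 was lower and none higher at pSC in replacement cysts, 2 were higher and 2 lower in KO cysts, and 2 were higher in WT cysts. Among all genes 41.8%, 48.4% and 25.9% passed in either direction in the 3 lines. The 2 in WT cysts were IFT57 (2.09, adjusted p = 0.024) and nompB (1.20, adjusted p = 0.034), both subunits of transport trains. The most abundant in WT pSC cysts were Oseg1 (11.3 ± 3.6 FPKM), the kinesin Klp64D (6.81 ± 1.94) and IFT57 (2.58 ± 1.70).

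Of the other long genes tested at this step, 12 of 146 were higher and 41 lower in replacement cysts. In KO cysts 25 of 146 were higher and 46 lower, and in WT cysts 28 of 148 were higher and 14 lower. Among all genes tested 19%, 21.1% and 8.28% were higher in replacement, KO and WT cysts, and 22.8%, 27.3% and 17.6% lower. Their median log2 difference was -0.32, -0.18 and 0.33, against 2.25, 1.69 and 1.74 for Dhc36C.

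The levels of the 7 genes were lower in single cysts than in whole testes. The mean of the highest stage in WT cysts was 0.107 times the mean of WT testes for Dhc16F, 0.171 for Dhc36C, 0.114 for Dhc62B, 0.216 for Dhc98D, 0.225 for Dhc93AB, whose mean at eST was 0.0485 FPKM with and 0.0205 FPKM without replicate 1, 0.170 for Dhc64C and 0.729 for btv. Among genes with a WT testis mean of at least 1 FPKM, the median ratio was 0.434 for 117 genes of at least 12000 exon bases. For 2828 genes of under 1000 bases it was 3.13. The testis means of btv and Dhc93AB were below 1 FPKM, and the others of the 7 genes are among the 117. Cyst RNA was amplified before sequencing and testis RNA was not prepared in the same way. The part of gene length and amplification in the ratio was not tested.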

How the data were processed

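The authors trimmed reads with Trimmomatic 0.36, mapped them with HISAT2 2.2.0 to D. melanogaster release 6, counted reads per gene on exons with HTSeq 0.6.0 without regard to strand, and deposited these raw counts. FPKM values per library were computed by the authors with StringTie 2.1.4 and deposited as well. Coordinates are those of the deposited files. Per the methods, the authors left out a cyst as an outlier. Exon lengths come from the Ensembl annotation.

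Genes averaging over 5 normalized counts in at least 1 group were kept. TMM factors were applied, and the two-sided quasi-likelihood test of edgeR 4.0.16 under R 4.3.3 was run in 1 fit for testes, 1 per stage and 1 per line. Adjustment followed Benjamini-Hochberg over all genes tested, and calls are values under 0.05. SE is the absolute log2 fold change over the square root of F. Alternatives were DESeq2 1.42.0, edgeR with DESeq2 size factors, a filter raised to 50 normalized counts or left out, limma 3.58.1 on log2(FPKM + 1) and log2(FPKM + 0.1), only the 2 groups compared, all 62 cysts in 1 fit, a replicate block and each library left out. Leaving out the 2 least correlated SG cysts was chosen after the data were seen. Descriptions used pandas 2.3.3, numpy 2.4.6 and scipy 1.17.1 under Python 3.11.15, and figures matplotlib 3.10.9.

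Named genes are the 7, for each the 2 genes most correlated over all 62 cysts, and all other axonemal heavy chains. Of each other list, up to 3 of the highest WT pSC level and genes called over 2-fold in testes are named. Of the intraflagellar transport genes called over 2-fold in testes, not all are named. Further genes of these lists were chosen after their values were seen. The members and lists were chosen with earlier results of these data known. The fit was tested on simulated data in which 200 genes had a log2 change of 2. Of those kept for the test, 89.8% were called in testes between KO and WT (12610 genes). The share was 76.2% at rST between KO and WT (12170 genes) and 58.6% in WT cysts between pSC and SG (12930 genes). The share called at smaller log2 changes, such as those of the 7 genes between lines in testes and at rST, was not tested. D. simulans libraries and sequences of the genes were not used here.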

Additional observations from a re-analysis of the deposited data

Results flagged for a closer look

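Each of the 83 groups of 4 to 10 libraries with values for a gene was searched for a cyst far from the rest by Dixon's criterion. Chance meets it in about 1 of 20 groups of independent normal values. FPKM cannot fall below 0 and the same cysts serve for all genes, so that rate need not hold here. It was met 12 times. KO rST replicate 2 was the highest of 6 cysts for both Dhc16F (1.60 FPKM, others 0.788 to 0.990) and Dhc36C (3.86 FPKM, others 2.15 to 2.63). Replacement SG replicate 4 was the highest of 5 for Dhc62B (1.53 FPKM, others 0.0530 to 0.397), Dhc98D (4.23 FPKM, others 1.02 to 1.92) and btv (0.772 FPKM, others 0.0703 to 0.190). That cyst also had the highest spermatid marker sum and the lowest SG marker sum of its group, 966 and 100.1 FPKM.

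In the replacement line, eST replicate 5 was high for Dhc62B (0.516 FPKM, others 0.214 to 0.282), pSC replicate 3 was high for Dhc98D (2.50 FPKM, others 1.45 to 1.63) and rST replicate 5 was low for Dhc98D (1.34 FPKM, others 1.50 to 1.56). In the KO line, pSC replicate 3 was high for Dhc64C (0.455 FPKM, others 0.136 to 0.220) and eST replicate 3 for Dhc93AB (0.0851 FPKM from 35 reads, others 0 to 0.0309). In the WT line, eST replicate 4 was high for btv (1.08 FPKM, others 0.310 to 0.494) and SG replicate 6 for Dhc93AB (0.0197 FPKM from 6 reads, others 0 to 0.00311).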

How the results depend on the processing

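In testes 5 of 21 tests of the 7 genes passed. With DESeq2, with limma on log2(FPKM + 1) and with limma on log2(FPKM + 0.1) 2 passed each, Dhc62B and Dhc16F between replacement and WT, and leaving out 1 library gave 2 to 6. Between lines in cysts 3 of 81 passed, 0 with limma at either pseudocount, 1 of 79 when only the 2 groups compared were fitted, and 0 to 4 without 1 cyst. Between stages 18 of 63 passed, among them the 2 calls of Dhc93AB that depend on the filter. The count was 15 to 21 without 1 cyst and 14 without the 2 least correlated SG cysts. No called difference of the 7 genes changed sign under any alternative run, and 165 results of single genes lost and 53 gained a call under an alternative. RPKM computed from the counts gave higher levels than the mean FPKM, in WT testes 19.0 for Dhc36C, 8.62 for Dhc62B, 13.8 for Dhc98D, 3.98 for Dhc64C and 1.25 for btv, and in WT pSC cysts 1.20 for Dhc16F, 2.58 for Dhc36C, 3.16 for Dhc98D and 1.01 for btv. With the replicate number as a block 7 of 21 passed in testes, 3 of 81 between lines in cysts and 13 of 63 between stages. Under the block Dhc36C (adjusted p = 0.14), Dhc62B (0.099) and btv (0.070) between KO pSC and SG cysts were among the lost calls. Libraries with the same number deviated together, each at a correlation over 0.1, in 1 of 33 pairs of groups, replacement and KO eST cysts (0.25 to 0.55). In each other pair at least 1 correlation was not over 0.1 (lowest of all -0.75), and there the numbers were not taken to pair the samples. Scaling by DESeq2's size factors moved the median of all genes between stages, to 0.44 between replacement pSC and SG cysts, against 0.15 with TMM. Depth limits Dhc93AB most, with under 100 reads in every library.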
